A study of Papio anubis with 25 samples.

Results

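The pancreas and the liver of the same olive baboons (Papio anubis) were compared across all genes. The comparison took the 10 libraries whose labels give pancreas or liver as the tissue, 5 of each, from the 25 libraries of the series. RNA had been isolated from 3 flash-frozen sections of 30 µm per tissue, treated with DNase, and sequenced as read pairs of 150 bases. One library came from each tissue of each animal, and libraries that share an animal number were treated as a pair. Animals 1 to 4 were female and animal 5 was male. The labels name no treatment, genetic alteration or age for these animals, and the sections were whole tissue, not sorted cells. The design text of the series concerns amylase expression in Old World monkeys and names pancreas against liver among its comparisons. Values were deposited as TPM, the part of all transcripts in the library that came from a gene, after correction for transcript length, so levels of different genes can be set side by side on this scale.

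Both organs arise from the foregut and secrete proteins in bulk, but in opposite directions. Acinar cells make up most of the pancreas and release digestive enzymes through ducts into the gut, while islets of endocrine cells release insulin, glucagon and other hormones into the blood. Hepatocytes make up most of the liver, release plasma proteins and lipoproteins into the blood, and carry out gluconeogenesis, nitrogen disposal, bile formation and drug conversion.

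The labels were checked against defining markers. CPA1, which encodes the pancreatic protease carboxypeptidase A1, was at 40562, 31451, 26663, 55949 and 27565 TPM in the pancreas of animals 1 to 5 and at 415, 237, 219.5, 341 and 284 TPM in their livers. ALB, which encodes serum albumin, was at 34684, 31060.2, 38464, 31506 and 14278 TPM in the livers of animals 1 to 5 and at 303, 241, 396, 383 and 109 TPM in their pancreases. Neither gene's groups overlapped, so every library carried the pattern of its label.

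Some features of the libraries touch many of the results below. Library pairs of one tissue correlated at a median r of 0.95 in pancreas (0.914 to 0.971) and 0.953 in liver (0.897 to 0.968) over the 12453 tested genes. The libraries of animal 5, the male, stood apart in both tissues. That animal had the lowest value of the 5 for 49.6% of tested genes in pancreas and 41.7% in liver, and the highest share of mitochondrially encoded transcripts, 9.89% and 33.5%. Genes typical of other tissues were present in both organs, and their levels are given at the end. Sex and animal cannot be told apart, because 1 male was sampled.

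The sum of TPM is fixed in every library, and a few genes took much of it. The 10 highest genes held 40.3% to 46.7% of a pancreas library and 23.4% to 35.9% of a liver library. The plot of shares shows 8 of the gene lists used below. The median log2 difference over all tested genes, pancreas minus liver, was -0.59 on the deposited scale and -0.08 after TMM scaling, which sets the bulk of genes equal between libraries. Differences are given on the deposited scale as log2(TPM + 1), pancreas minus liver, and calls that ended with TMM scaling are named.

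**Figure D1:**
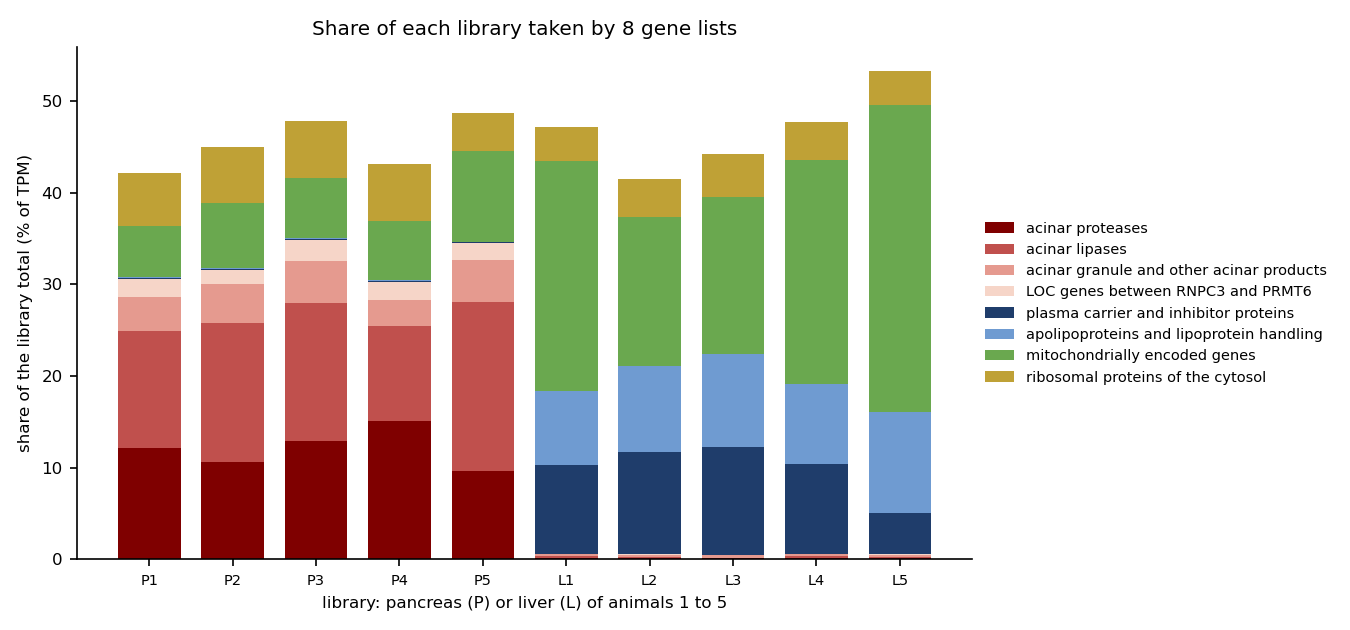
Share of the library total in % of TPM (y axis) taken by 8 gene lists in each of the 10 libraries (x axis, P for pancreas and L for liver, animals 1 to 5), as stacked bars. Acinar proteases and lipases fill 9.65% to 15.1% and 10.3% to 18.4% of the pancreas libraries, and mitochondrially encoded genes reach 33.5% in the liver of animal 5.

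Of 12453 genes tested, 4313 were called (34.6%), with 633 higher in pancreas (5.08%) and 3680 higher in liver (29.6%). A call needed a limma adjusted p under 0.05, with the animal as a block, and a difference of at least 1 log2 unit. With TMM scaling 3142 genes were called (25.2%), 1273 higher in pancreas (10.2%) and 1869 higher in liver (15%). Genes higher in pancreas were thus 14.68% of all calls on the deposited scale and 40.52% with TMM scaling, so the balance between the sides changed with the scaling. All 633 genes called higher in pancreas and 1869 of the 3680 called higher in liver were called the same way on both scales. The largest differences were nearly equal in size, 7.29 for SYCN on the pancreas side and -7.20 for APOA1 on the liver side. A difference of at least 5 was reached by 49 genes on the pancreas side and 209 on the liver side. These libraries are bulk tissue, in which fewer cells of a type and less RNA per cell cannot be told apart.

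**Figure D2:**
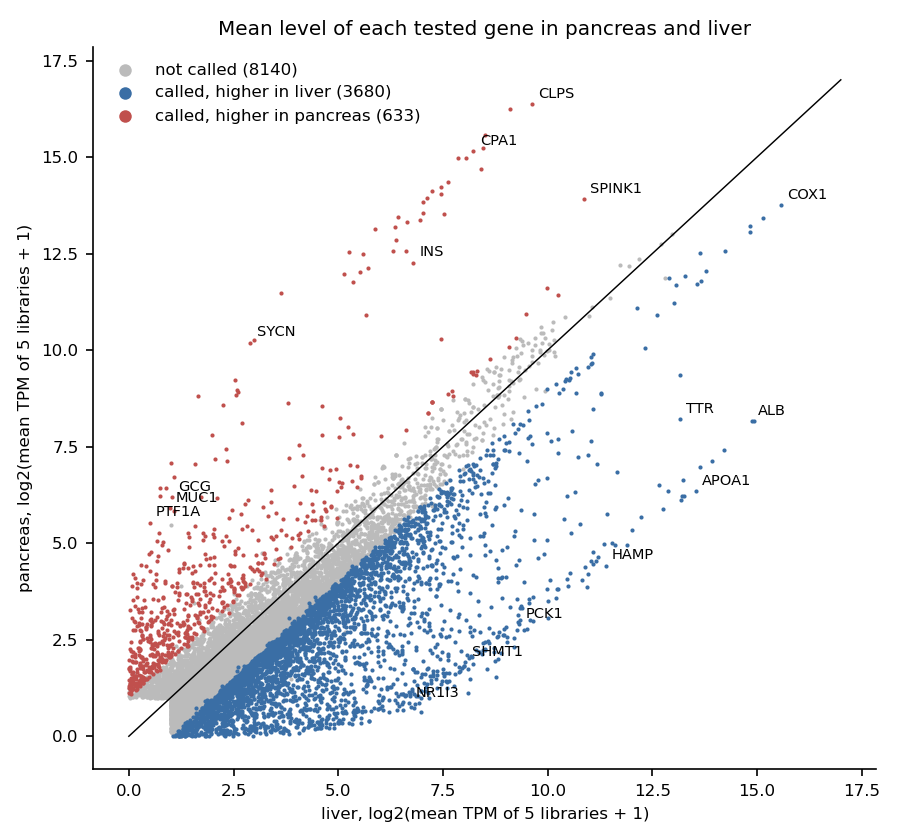
Mean level of each of the 12453 tested genes in 5 liver libraries (x axis) and 5 pancreas libraries (y axis), both as log2(mean TPM + 1), with genes called higher in pancreas in red (633), higher in liver in blue (3680) and uncalled genes in grey. The line marks equal levels, and most uncalled genes lie on it or below it, on the liver side.

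On the pancreas side, the proteases that acinar cells store in zymogen granules were among the most abundant groups with assigned symbols. All 8 of 8 tested proteases were higher in pancreas (median difference 6.58), and together they held 12.1% ± 2.11 (SD, n = 5) of the pancreas libraries against 0.112% ± 0.0265 of the liver libraries. CPA1, with the values given above, differed by 6.91 ± 0.16 (SE, limma adjusted p = 6.84e-08). CPB1, carboxypeptidase B1, was at 27025, 15283, 22517, 33707 and 7028 TPM in the 5 pancreases and 324, 104, 159.8, 238 and 151 TPM in the 5 livers. CELA3B, an elastase-family protease, was at 15352, 18880.0, 15502, 22423 and 16266 TPM against 165, 142, 103, 191 and 146 TPM. Chymotrypsin-like CTRL (11813 to 27242 against 119.9 to 217 TPM), the related CTRB2 (1997 to 4122 against 23.5 to 68.8 TPM) and CELA1 were other digestive proteases of the list. In each of these genes the lowest pancreas library lay above the highest liver library. The kallikrein KLK1, chosen here with its values known, was at 1614 to 2136 TPM in pancreas and 31.5 to 63.1 TPM in liver. Symbols for the trypsinogens, for CTRC and for the CELA2 genes found no match in the table, and those genes were not analysed here by name.

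Among genes with a matched symbol, fat-digesting enzymes took a larger mean share than the proteases, with overlapping ranges over libraries. Only 8 of 16 protease symbols and 4 of 6 lipase symbols had a match. The 2 shares are therefore not totals, and they do not rank the full enzyme groups. All 4 of 4 tested members were higher in pancreas, with a median difference of 6.75, and they held 14.3% ± 3.01 of the pancreas libraries against 0.132% ± 0.0309 of the liver libraries (SD, n = 5). CLPS, which encodes colipase, the cofactor that lets lipase work on bile-coated fat, was at 79149, 75345, 83261, 58983 and 128694 TPM in pancreas and 869, 928, 418, 870.2 and 852 TPM in liver. PLA2G1B, the secreted pancreatic phospholipase A2, was at 29334, 56168, 45469, 21529 and 41032 TPM in pancreas and 348, 464, 229, 389 and 320.4 TPM in liver. For both genes the lowest pancreas lay far above the highest liver. CEL, bile salt-dependent lipase, differed by 6.87 ± 0.14 (SE, limma adjusted p = 6.84e-08) and PNLIPRP1, a lipase-related protein, by 6.64 ± 0.25 (SE, limma adjusted p = 3.40e-07).

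Among granule proteins and other gene products of acinar cells, 11 of 13 tested members were higher in pancreas. SYCN, which encodes syncollin, a protein of the zymogen granule membrane, was at 841, 1769, 1008, 662 and 1582 TPM in pancreas and 3.68, 11.9, 4.45, 6.55 and 5.70 TPM in liver. Its difference of 7.29 ± 0.21 (SE, limma adjusted p = 1.07e-07) was the largest of all tested genes in either direction. GP2, the main glycoprotein of that membrane, ranged from 1703 to 8750.1 TPM in pancreas and from 24.1 to 80.5 TPM in liver, and the lectin ZG16 from 5674 to 21719.7 and 102 to 195 TPM. The trypsin inhibitor SPINK1 was abundant in both organs. It was at 12112, 18106, 14933, 11279.7 and 20606 TPM in pancreas and 1009, 1896, 2492, 1895 and 1998 TPM in liver, a difference of 3.07 ± 0.19 (SE, limma adjusted p = 5.88e-06). GATM, the first enzyme of creatine synthesis, was high in both tissues at 715, 195, 344, 554 and 101 TPM in pancreas and 901, 271, 193, 339 and 81.8 TPM in liver, and the groups overlapped.

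**Figure D3:**
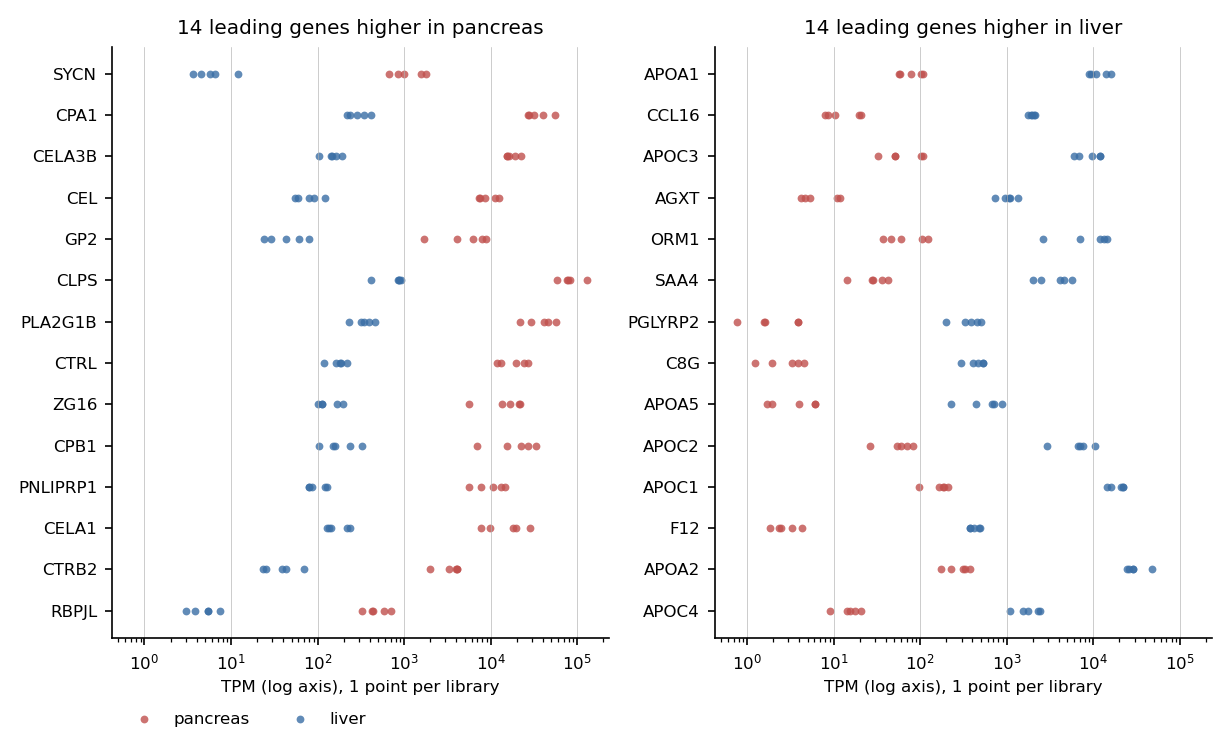
TPM on a log axis (x axis) of the 14 named genes with the largest differences on each side (y axis), 1 point per library, with pancreas in red and liver in blue. The 2 colours do not overlap for any of the 28 genes, and CLPS is the highest of them. The lack of overlap follows largely from choosing genes by the size of the difference and the same direction in every animal. The share of all tested genes without overlap is not given here.

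Genes that carry only a LOC number held 38.0% to 43.2% of the pancreas libraries and 17.9% to 19.7% of the liver libraries. Singled out after their values were seen, 15 such genes averaged 5000 TPM or more in pancreas and were higher there, with differences from 5.97 to 7.24. In the gene order of the RefSeq annotation (Panubis1.0), 5 of them lay between EPHB6 and PRSS58 and held together 11.4% to 17.2% of each pancreas library and 0.0834% to 0.131% of each liver library. Another run of 5, between EFHD2 and CASP9, held 6.26% to 11.6% of pancreas and 0.0476% to 0.0911% of liver. One more lay between PNLIPRP1 and PNLIPRP3, and it held 1.65% to 3.91% of pancreas and 0.0201% to 0.0397% of liver. On the liver side 3 LOC genes averaged 5000 TPM or more and had a difference beyond -2, of which the highest, between DHODH and TXNL4B, held 0.646% to 1.91% of liver and 0.00559% to 0.0196% of pancreas. The table gives these genes no name, and near-identical neighbours can share reads, so single values within a run are uncertain.

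Of the LOC genes that lie between RNPC3 and PRMT6, 3 of 3 tested were higher in pancreas. This is the interval that holds the amylase genes in the human genome, and the table gives the baboon genes there no name. LOC101017419 was at 10475, 9141, 12893, 12165 and 14641 TPM in pancreas and 161, 155, 102, 148 and 347 TPM in liver. LOC116268615 was the least tissue-restricted of them, at 197 to 2569.6 TPM in pancreas and 147 to 186 TPM in liver.

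The transcription factors that set up acinar identity were far lower in level than the enzymes. RBPJL, the acinar-restricted partner in the PTF1 complex, was at 422, 699, 592, 441 and 327 TPM in pancreas and 5.45, 5.41, 2.99, 7.41 and 3.79 TPM in liver. PTF1A, its basic helix-loop-helix partner, was at 56.8, 30.6, 56.7, 59.6 and 23.0 TPM in pancreas and 0.757, 0.169, 0.387, 0.585 and 0.152 TPM in liver, a difference of 4.96 ± 0.17 (SE, limma adjusted p = 2.46e-07). BHLHA15, which shapes the secretory apparatus, differed by 4.26 and NR5A2, a nuclear receptor active in acinar cells and hepatocytes, by 1.33. All 5 animals had each of these 4 higher in pancreas. XBP1, a regulator of secretory cells in many tissues, was at 89.9 to 211 TPM in pancreas and 66.6 to 191 TPM in liver, with overlapping groups. The count over this list was 4 of 8 on the deposited scale and 6 with TMM scaling.

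The islet hormones called were higher in pancreas, and their levels differed widely between animals. INS, the insulin gene, was at 5248, 562, 4704, 732 and 13411 TPM in the pancreas of animals 1 to 5 and at 54.6, 343, 17.6, 49.9 and 85.4 TPM in their livers. Animals 2 and 4 were low, and in animal 2 the pancreas was only slightly above the liver of the same animal, whose INS level was the highest of the 5 livers. The difference was 5.28 ± 0.97 (SE, limma adjusted p = 0.00172). IAPP, the amyloid peptide released with insulin, was at 389.9, 12.4, 159.7, 13.2 and 284 TPM in pancreas and 3.77, 10.8, 0, 2.22 and 3.15 TPM in liver, and animals 2 and 4 were again the lowest. Every pancreas lay above every liver, by little in those animals. GCG, the glucagon gene, was at 279.6, 0.752, 6.17, 0.959 and 74.3 TPM in pancreas and 1.89, 1.48, 0, 0.374 and 1.41 TPM in liver, with the pancreases of animals 2 and 4 at the level of the livers. Its difference was 2.88 ± 0.96 (SE, limma adjusted p = 0.0267), and the call ended without animal 1, 3 or 5, or without the block. The 5 paired differences had SDs of 2.99 for INS and 2.97 for GCG, while the SEs given are moderated by limma. SST, somatostatin, was at 34.2, 0, 2.16, 0.234 and 33.1 TPM in pancreas, 0 to 2.80 TPM in liver, and was not called. In all, the islet hormones held 0.0575% to 1.38% of a pancreas library. The count of hormones called was 3 of 5, and it was 5 without animal 2, 4 without animal 4 and 2 without animal 1, 3 or 5.

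**Figure D4:**
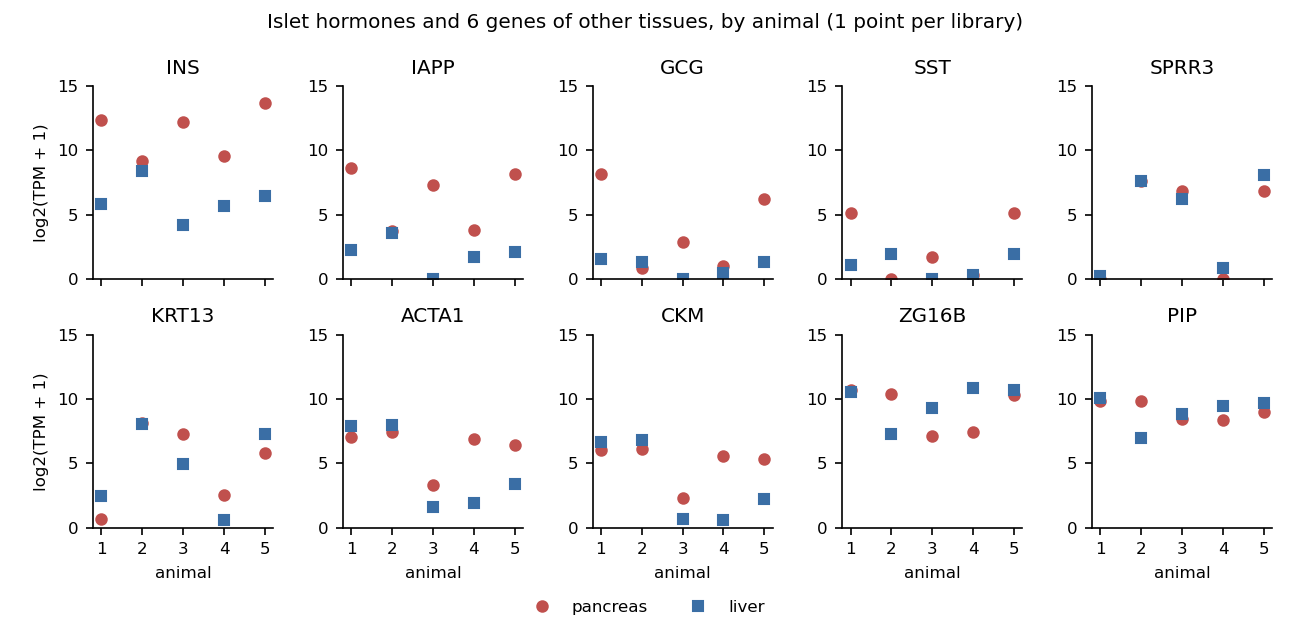
Level of 10 genes as log2(TPM + 1) (y axis) in the pancreas (red circles) and liver (blue squares) library of each animal (x axis, animals 1 to 5). Islet hormones INS, IAPP, GCG and SST are low in the pancreas of animals 2 and 4, SPRR3 and KRT13 are high in both tissues of animals 2, 3 and 5, and ACTA1 and CKM are high in the livers of animals 1 and 2.

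Other islet genes were called in part. Of 7 tested islet transcription factors, PDX1 (4.58 to 9.78 against 0 to 0.205 TPM), which also marks the whole developing pancreas, MNX1 (4.50 to 14.4 against 0 to 0.041 TPM) and NKX6-1 (1.37 to 3.78 against 0 to 0.0388 TPM, named after its values were seen) were higher in pancreas. PAX6 did not pass the threshold. Among islet granule and secretion genes, 2 of 13 were higher in liver (1 with TMM scaling) and 4 were not called. CHGA, an islet marker of the naming rule, was among those not called, at 1.86, 0.159, 0.395, 0.0875 and 8.18 TPM in pancreas. It was at 0.0324 to 0.133 TPM in liver, and is left out of the counts of named genes at the end. The other 7 of the list were higher in pancreas (10 with TMM scaling). They included ERO1B, an oxidase that supports insulin folding, at 45.3, 50.4, 38.3, 37.1 and 30.5 TPM in pancreas and 6.86, 6.55, 3.93, 6.04 and 4.10 TPM in liver, and PCSK1N, an inhibitor of prohormone cleavage, at 5.12 to 62.4 TPM in pancreas and 3.94 to 7.35 TPM in liver. KCNJ11 and ABCC8, the subunits of the channel that couples glucose to insulin release, and the incretin receptor GLP1R were named after their values were seen, with differences of 2.14, 1.91 and 2.73. TTR, a carrier of thyroid hormone made by hepatocytes and by islet cells, went the other way at 146 to 472 TPM in pancreas and 7267 to 10440.3 TPM in liver.

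Ducts of the pancreas and bile ducts of the liver share many epithelial genes, and 8 of 15 tested duct genes were higher in pancreas. MUC1, a mucin of the apical membrane, was at 29.0, 80.1, 72.7, 39.0 and 74.5 TPM in pancreas and 0.837, 1.34, 0.489, 0.739 and 1.43 TPM in liver, a difference of 4.85 ± 0.23 (SE, limma adjusted p = 1.13e-06). CFTR, the chloride and bicarbonate channel of duct cells, was at 2.37 to 6.17 TPM in pancreas and 0.104 to 0.337 TPM in liver, and SOX9, a transcription factor of duct cells, at 2.94 to 7.93 and 0.652 to 1.54 TPM. The keratins did not follow. KRT19 was at 21.2, 18.8, 19.3, 18.9 and 15.9 TPM in pancreas and 4.70, 19.8, 17.7, 2.62 and 46.9 TPM in liver, and KRT8 and KRT18, which hepatocytes also express, were at 47.6 to 81.0 and 39.8 to 56.6 TPM in pancreas and at 63.8 to 87.0 and 45.8 to 79.3 TPM in liver. The KRT19 level of liver was higher in animals 2, 3 and 5 than in animals 1 and 4. SPRR3 and KRT13, genes of squamous epithelium described below, were higher in the same livers, and a link was not tested. CA2, a carbonic anhydrase, was higher in liver (8.47 to 78.2 against 2.62 to 6.44 TPM).

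Of 7 tested receptors for hormones and transmitters that act on secretion, 3 were higher in pancreas and 2 in liver (4 and 2 with TMM scaling). The shares of all tested genes were 5.08% and 29.6% (10.2% and 15% with TMM scaling), so the liver count as deposited was near its share. SCTR, the secretin receptor of duct cells, was at 40.2, 47.8, 29.4, 37.7 and 33.2 TPM in pancreas and 0.751, 0.811, 0.181, 0.633 and 0.884 TPM in liver, a difference of 4.55 ± 0.14 (SE, limma adjusted p = 1.15e-07). CCKAR, a cholecystokinin receptor, was at 46.6, 5.44, 1.22, 7.94 and 5.28 TPM in pancreas and 0.0293 to 0.355 TPM in liver. Its level in animal 1 was several times that of the other 4. GRPR, the receptor for gastrin-releasing peptide, named after its values were seen, was higher in pancreas with a difference of 1.24. GCGR, the receptor for the islet hormone glucagon, was at 105, 104, 121, 127 and 147 TPM in liver and 4.19, 13.1, 4.08, 3.57 and 5.69 TPM in pancreas, and VIPR1, a receptor for vasoactive intestinal peptide, was also higher in liver, with a difference of -2.37.

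The machinery for making and exporting secreted proteins gave calls in both directions, and most of its members were not called. Of 59 genes of endoplasmic reticulum (ER) translocation and folding, 6 were higher in pancreas and 8 in liver (median -0.03), and with TMM scaling 19 and 2. Of all tested genes 5.08% were higher in pancreas and 29.6% in liver (median -0.59), and with TMM scaling 10.2% and 15%. Beside those shares, the list had more members higher in pancreas and fewer higher in liver on both scales. DERL3, which moves misfolded proteins out of the ER, was at 206, 205, 203, 170.3 and 146 TPM in pancreas and 12.9, 17.3, 19.9, 13.8 and 14.8 TPM in liver. FKBP11, a prolyl isomerase of secretory cells, was at 165 to 279 TPM in pancreas and 51.6 to 75.7 TPM in liver, and SSR4, a subunit of the translocon-associated complex, at 358 to 613 and 191 to 249 TPM. These 3 were higher in pancreas on both scales, but SSR4 was not called in a fit to all 25 libraries. P4HB, a protein disulfide isomerase, and PPIB, a cyclophilin, were at 121 to 593 and 222 to 312 TPM in pancreas and 56.0 to 399.5 and 289 to 409 TPM in liver, below the threshold. P4HB passed it with TMM scaling, as higher in pancreas. The chaperone CALR and the disulfide isomerase PDIA4, named after their values were seen, were higher in liver, with differences of -1.70 and -1.85. The call of CALR ended with median-of-ratios scaling.

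Between the ER and the Golgi, 2 of 33 genes were higher in pancreas (5 with TMM scaling), beside 5.08% of all tested genes (10.2% with TMM scaling). The 2 called as deposited encode cargo receptors of the p24 family. TMED6 was at 157, 144, 152, 131 and 131 TPM in pancreas and 5.38, 2.18, 2.28, 3.01 and 3.01 TPM in liver, and TMED3 at 53.7 to 202 and 11.3 to 20.8 TPM, while their relative TMED2 was at 20.9 to 196 and 24.3 to 193 TPM. The count in the other direction was 4, and 2 with TMM scaling, beside 29.6% and 15% of all tested genes. For regulated exocytosis, 3 of 16 were higher in pancreas (6 with TMM scaling), among them RAB26, a GTPase of secretory granules, at 107, 164, 106, 107 and 154 TPM against 17.2, 52.8, 86.5, 45.9 and 11.9 TPM in liver. None was higher in liver on either scale, although 1 was called there without animal 1 or 3. Of 19 aminoacyl-tRNA synthetases, 0 were called on the deposited scale by limma and 2 were higher in pancreas with TMM scaling. At an unadjusted p under 0.05, 8 of them differed.

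Of 13 tested genes of serine, glycine, proline and asparagine synthesis, 3 were higher in pancreas and 5 in liver (3 and 4 with TMM scaling). These counts stand beside 5.08% and 29.6% of all tested genes (10.2% and 15% with TMM scaling). ASNS, asparagine synthetase, was at 22.7, 23.1, 10.4, 19.6 and 21.0 TPM in pancreas and 1.75, 1.53, 1.62, 1.55 and 1.95 TPM in liver, and PYCR1, a proline-forming enzyme, at 54.9, 62.7, 50.1, 53.6 and 44.5 TPM in pancreas and 4.33, 4.15, 5.64, 7.76 and 5.20 TPM in liver. Both were higher in pancreas, with differences of 2.88 and 3.10. The cytosolic serine hydroxymethyltransferase SHMT1 was higher in liver, at 303, 317, 246, 326 and 113 TPM against 3.02, 2.76, 3.29, 3.50 and 1.31 TPM. The mitochondrial SHMT2 differed by -1.17, a call that ended with TMM scaling, and PHGDH, the first enzyme of serine synthesis, by -0.31, which was below the threshold. PSAT1 and PSPH, the next enzymes of serine synthesis, named after their values were seen, were higher in liver on both scales, with differences of -2.54 and -2.62.

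Ribosomal protein genes illustrate the effect of the scale. Of 78 tested, 9 were higher in pancreas and 1 in liver on the deposited scale (median 0.49), and 47 and 0 with TMM scaling (median 1.18). A fit to all 25 libraries called 0 of them higher in pancreas. RPL13A was at 3147, 3043, 3432, 3321 and 791 TPM in pancreas and 1192, 1450.1, 1562, 1149 and 733 TPM in liver, with animal 5 far below the other 4 pancreases, and its call ended without animal 1 or 4. Their summed share was 4.11% to 6.2% of pancreas libraries and 3.69% to 4.68% of liver libraries. Cytosolic translation factors gave 1 member higher in pancreas, EEF1B2, whose call ended without animal 1, and 4 higher in liver of 27, against 8 and 0 with TMM scaling.

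On the liver side, proteins exported to the plasma led. All 36 of 36 tested carriers and protease inhibitors were higher in liver (median -5.83), as were all 15 of 15 acute phase proteins (median -6.46), and the counts were the same with TMM scaling. ALB, with the values given above, differed by -6.76 ± 0.15 (SE, limma adjusted p = 6.84e-08). RBP4, the carrier of retinol, was at 11608, 16111, 16923, 13760.0 and 5285 TPM in liver and 107, 111, 182, 169.6 and 56.3 TPM in pancreas. ORM1, an acute phase glycoprotein, was at 7067, 14333, 11839, 13185 and 2641 TPM in liver and 45.4, 60.2, 106, 123 and 36.7 TPM in pancreas, with the lowest liver in animal 5. HAMP, which encodes hepcidin, the hormone that limits iron export, was at 432, 3974, 4914, 1104 and 2979 TPM in liver and 12.6, 14.6, 33.3, 28.0 and 13.8 TPM in pancreas. HAMP and ORM1 varied more over the 5 livers than RBP4, with SDs of the log2 level of 1.47, 1.01 and 0.683, but in each of these genes the groups were far apart. CCL16, a liver-made chemokine, was at 1747 to 2098 TPM in liver and 7.89 to 20.6 TPM in pancreas.

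Apolipoproteins and genes of lipoprotein handling held 9.46% ± 1.18 of the liver libraries and 0.0852% ± 0.0218 of the pancreas libraries (SD, n = 5). Of 25 tested members, 24 were higher in liver (median -5.36). APOA1, the main protein of high-density lipoprotein, was at 10869, 9311, 14102, 8893 and 16081 TPM in liver and 77.7, 58.1, 103, 107 and 56.2 TPM in pancreas, a difference of -7.20 ± 0.24 (SE, limma adjusted p = 1.90e-07). APOA2, the next protein of those particles, was the highest apolipoprotein at 25717, 24316, 28915, 28690.1 and 47909 TPM in liver, against 375, 227, 328, 316 and 172 TPM in pancreas. APOC1 (14385 to 22193 against 96.6 to 210.4 TPM), APOC3 (5987 to 12006 against 32.9 to 107 TPM) and APOE (7877 to 11402 against 75.5 to 121 TPM), which regulate lipoprotein turnover, showed the same order with no overlap.

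Clotting and complement factors formed another exported set. For coagulation and fibrinolysis, 26 of 29 genes were higher in liver (median -4.96), on both scales, and the 3 not called were F3, PLAT and PLAU, named after their values were seen, which many other cell types make. The fibrinogen chain FGB was at 3133, 4713, 3349, 2686 and 988 TPM in liver and 30.9, 31.5, 39.7, 38.5 and 14.2 TPM in pancreas, and SERPINC1, antithrombin, was at 1631, 1587, 1580.3, 1653 and 593 TPM in liver and 13.7, 13.8, 22.7, 22.5 and 7.05 TPM in pancreas. F12, which starts the contact pathway, was at 372 to 485 TPM in liver and 1.85 to 4.27 TPM in pancreas. For complement, 24 of 28 genes were higher in liver. C3, the central component, was at 1619, 2051, 1618, 1278 and 829 TPM in liver and 18.6, 20.2, 22.0, 20.2 and 7.87 TPM in pancreas, and C8G, part of the membrane attack complex, differed by -6.86. The 4 complement genes not called were C7 and the membrane-bound regulators CD46, CD55 and CD59, all named after their values were seen. CD59 was higher in pancreas with TMM scaling.

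Nitrogen disposal genes were mostly higher in liver. All 9 of 9 urea cycle genes were higher in liver, on both scales (median -4.28). ASS1, argininosuccinate synthase, was at 637, 610.2, 922, 357 and 927 TPM in liver and 17.1, 12.4, 19.2, 17.5 and 8.81 TPM in pancreas, and ARG1, the arginase that releases urea, was at 352, 396, 625, 327 and 230.2 TPM in liver and 2.92, 9.29, 7.71, 5.12 and 5.05 TPM in pancreas. For amino acid breakdown, 48 of 54 genes were higher in liver, and 43 with TMM scaling. AGXT, which detoxifies glyoxylate in peroxisomes, differed by -7.03 ± 0.19 (SE, limma adjusted p = 7.99e-08), HPD, of tyrosine breakdown, by -6.06 and HAAO, of tryptophan breakdown, by -6.36. MAT1A, the methionine adenosyltransferase of liver, stood out as abundant in both organs. It was at 212, 450.3, 312, 203 and 90.9 TPM in pancreas and 309, 509, 484, 519.8 and 297 TPM in liver, the groups overlapped, and its difference of -0.88 ± 0.23 (SE, limma adjusted p = 0.0102) was below the size threshold.

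Glucose handling showed the same direction, with 22 of 23 genes higher in liver (21 with TMM scaling). PCK1, the cytosolic enzyme that commits carbon to gluconeogenesis, was at 938, 674, 988, 470.4 and 119.7 TPM in liver and 3.55, 6.79, 8.86, 10.5 and 2.63 TPM in pancreas. KHK, the ketohexokinase of fructose metabolism, was at 613, 646, 478, 438 and 219.7 TPM in liver, with a difference of -5.24 ± 0.18 (SE, limma adjusted p = 2.39e-07). G6PC, which frees glucose from its phosphate, and the transporter SLC2A2, both used by hepatocytes to exchange glucose with the blood, were named after their values were seen. G6PC was at 39.4 to 200.1 TPM in liver and 0.536 to 1.64 TPM in pancreas, and SLC2A2 at 27.8 to 96.3 and 0.646 to 0.924 TPM. G6PC2, a catalytic subunit best known from islets, was higher in liver, at 37.7 to 120.2 TPM against 13.9 to 36.8 TPM, with -1.29 ± 0.22 (SE, limma adjusted p = 0.00112). This call ended with TMM scaling.

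Fat metabolism gave 33 of 36 genes of fatty acid oxidation and ketogenesis higher in liver (29 with TMM scaling) and 26 of 30 genes of sterol and fatty acid synthesis (21 with TMM scaling). FABP1, the fatty acid binding protein of liver, was at 791, 1608, 1215, 1021 and 434 TPM in liver and 8.41, 9.19, 20.3, 18.3 and 8.48 TPM in pancreas. ACADSB, a dehydrogenase of branched-chain acyl groups, was at 421, 363, 269, 308 and 59.3 TPM in liver and 13.7, 14.6, 14.9, 12.9 and 4.82 TPM in pancreas, with animal 5 low in both. DGAT2, of triglyceride synthesis, differed by -4.98, and ECHS1, a shared enzyme of beta oxidation, by -1.07. The call of ECHS1 ended with TMM scaling and without animal 2 or 3.

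Bile formation and drug handling lists followed. Of 12 genes of bile acid synthesis and sensing, 11 were higher in liver. SLC27A5, which activates bile acids for conjugation, was at 137 to 384 TPM in liver and 2.31 to 4.60 TPM in pancreas. Transporters gave 17 of 18 higher in liver (14 with TMM scaling). They included SLC10A1, which takes up bile acids, at 183, 191, 185, 214 and 78.0 TPM in liver and 2.33, 3.06, 4.19, 3.97 and 1.36 TPM in pancreas, with a difference of -5.40 ± 0.15 (SE, limma adjusted p = 9.34e-08). ATP8B1, a flippase that protects apical membranes, was the single exception, at 7.84, 3.35, 3.04, 7.19 and 1.82 TPM in pancreas and 0.957, 0.829, 0.858, 0.485 and 0.752 TPM in liver. For conjugation and other drug metabolism, 41 of 45 genes were higher in liver. SULT2A1, a steroid sulfotransferase, was at 359.9, 482, 571, 779.6 and 184 TPM in liver and 2.42, 2.18, 5.18, 6.21 and 1.37 TPM in pancreas. EPHX1, an epoxide hydrolase, differed less, at 515 to 1213 TPM in liver and 90.3 to 133 TPM in pancreas. Of 50 cytochrome P450 symbols 1 had a match in the table, CYP2C8, at 390.2 to 1158 TPM in liver and 6.49 to 41.8 TPM in pancreas, so the family was not analysed here.

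Iron and metal handling gave 11 of 13 genes higher in liver. MT2A, a metallothionein that binds zinc and copper, was at 7192, 16071, 11531, 8498 and 2810.4 TPM in liver and 1094, 865, 643, 314 and 339 TPM in pancreas. TFR2, a sensor of transferrin-bound iron, differed by -5.44 and the ferritin chain FTH1 by -1.35, a call that ended with TMM scaling. Peroxisomal genes were split by the scale. Of 27, 19 were higher in liver as deposited and 11 with TMM scaling. Catalase, CAT, was called on both, at 642, 742, 841, 559 and 228 TPM in liver and 28.2, 19.2, 24.5, 23.1 and 8.50 TPM in pancreas.

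The transcription factors of hepatocytes included both organ-specific and shared regulators. Of 29 tested, 24 were higher in liver (21 with TMM scaling), with a median difference of -2.53, and only NR5A2 was higher in pancreas. NR1I3, a receptor that senses foreign compounds, was at 88.6, 99.7, 126, 104 and 93.8 TPM in liver and 0.498, 0.866, 0.783, 1.23 and 0.645 TPM in pancreas. MLXIPL, which responds to carbohydrate, was at 344, 263, 213, 319.7 and 179 TPM in liver and 8.26, 6.15, 6.65, 5.61 and 8.63 TPM in pancreas. HNF4A, a regulator that both organs use, was named after its values were seen, and was at 23.8 to 48.9 TPM in liver and 0.61 to 2.30 TPM in pancreas. FOXA2, FOXA3, HNF4G and ZGPAT, named after their values were seen, did not pass the threshold.

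Enzymes that exist in several forms were compared on both sides. The lists also hold some genes that are not such forms, among them GAMT and TTPA on the liver list and GATM on the other. Of 19 genes on the liver list, 16 were higher in liver, on both scales. The 3 not called were MAT1A and, named after their values were seen, CPT1A and GAMT. Of 17 genes on the list of forms used in other tissues, 2 were higher in pancreas, CPB1 and CPT1B, and 7 in liver (3 and 4 with TMM scaling). Among all tested genes the shares were 5.08% and 29.6% (10.2% and 15% with TMM scaling). CPT1B, known as the muscle form of the enzyme that admits fatty acids to mitochondria, was at 7.53, 8.58, 10.5, 6.51 and 8.11 TPM in pancreas and 1.28, 1.57, 3.03, 1.96 and 3.48 TPM in liver. PCK2, the mitochondrial counterpart of PCK1, was also higher in liver, at 87.4 to 170.5 TPM against 3.97 to 6.80 TPM.

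Mitochondrial transcripts were more abundant in liver. The 13 genes of the mitochondrial genome held 23.3% ± 7 of the liver libraries and 7.11% ± 1.64 of the pancreas libraries (SD, n = 5). COX1, a core subunit of cytochrome oxidase, was at 46575, 35388, 37943, 51707 and 72983 TPM in liver and 10469, 14708, 14230.1, 12273 and 17616 TPM in pancreas, with animal 5 highest in both. Its call ended when the genes that reach 1% of a library were left out of the total. On the deposited scale 12 of the 13 were higher in liver, and 8 with TMM scaling. Nuclear genes for respiratory chain subunits gave 48 of 59 (median -1.29) and 11 with TMM scaling (median -0.64). Tricarboxylic acid cycle genes gave 13 of 23 and 7, with SDHA, the flavoprotein of succinate dehydrogenase, at 89.0 to 178 TPM in liver and 28.3 to 52.1 TPM in pancreas. These medians stand beside -0.59 and -0.08 for all tested genes. The counts stand beside 29.6% of all tested genes higher in liver as deposited and 15% with TMM scaling. With TMM scaling the respiratory chain count was only slightly above that share.

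**Figure D5:**
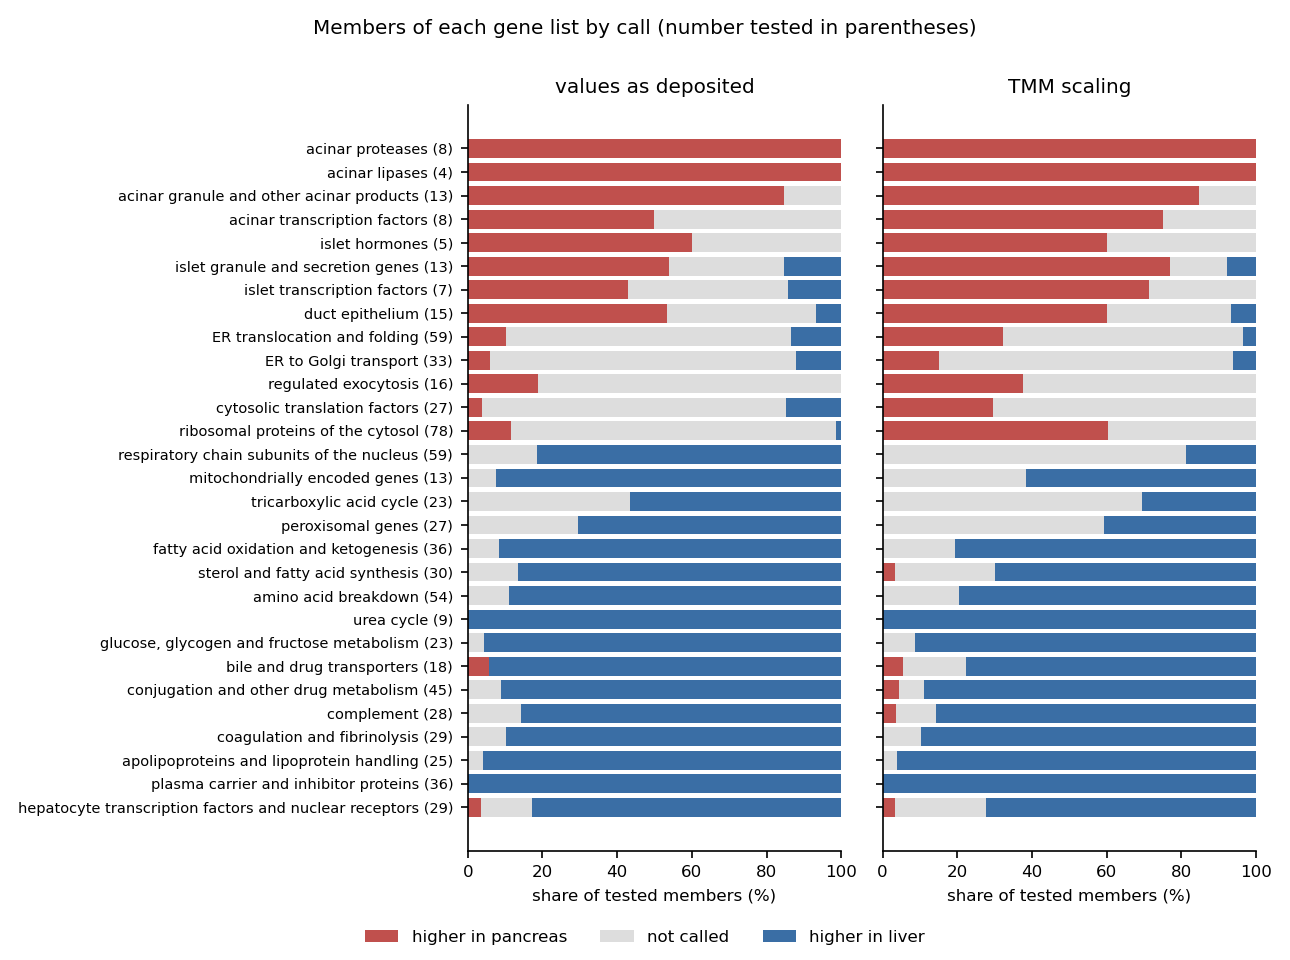
Share of the tested members (x axis, %) of 29 gene lists (y axis, number tested in parentheses) that were called higher in pancreas (red), not called (grey) or called higher in liver (blue), for the deposited values (left) and after TMM scaling (right). Lists of acinar products and of exported plasma proteins look alike on both sides, whereas ribosomal protein, translation, ER and respiratory chain lists shift with the scale.

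Most markers of the other cells of each organ were at low levels. The counts that follow stand beside 5.08% of all tested genes higher in pancreas and 29.6% in liver (10.2% and 15% with TMM scaling). Among liver macrophage genes, 6 of 9 were higher in liver on both scales and 1 in a fit to all 25 libraries. CD5L, a protein of Kupffer cells, was at 5.86, 7.12, 11.5, 9.53 and 7.91 TPM in liver and 0.234, 0.46, 0.215, 0.724 and 0.408 TPM in pancreas. Among genes of liver sinusoidal endothelium, 7 of 9 were higher in liver, with the lectin CLEC4G at 7.35 to 19.9 TPM in liver and 0 to 1.76 TPM in pancreas. Of 5 tested genes of endothelium in general, 1 was higher in pancreas and 1 in liver (3 and 0 with TMM scaling). PLVAP, a protein of the diaphragms of fenestrated endothelium, was higher in pancreas, at 25.8, 28.4, 23.6, 29.4 and 9.17 TPM against 2.44, 2.81, 2.65, 1.63 and 3.41 TPM. CLDN5, a claudin of endothelial tight junctions, was higher in liver, at 3.00 to 7.57 TPM against 1.28 to 3.72 TPM with overlapping groups, a call that ended with TMM scaling and without animal 1 or 3. T and NK cell genes gave 6 of 9 higher in liver (5 with TMM scaling, 1 in a fit to all 25 libraries), with KLRD1, a receptor of NK cells, at 9.65 to 15.5 TPM in liver and 0.481 to 1.60 TPM in pancreas. B and plasma cell genes gave 5 of 7 higher in liver and 2 with TMM scaling. DERL3, which acinar cells share with plasma cells, was the 1 member higher in pancreas, while JCHAIN and MZB1, plasma cell genes, were higher in liver, with differences of -1.44 and -2.22. The call of JCHAIN ended with TMM scaling. Of 12 tested genes of stellate cells and fibroblasts, 2 were higher in pancreas and 2 in liver (3 and 2 with TMM scaling). The matrix proteoglycan LUM and the pericyte gene RGS5 were higher in pancreas, with differences of 1.59 and 1.28, and the proteoglycan BGN was higher in liver with -2.48, all named after their values were seen. The calls of LUM and RGS5 ended in a fit to all 25 libraries, and that of RGS5 without animal 4. DCN and SPARC were not called on the deposited scale, and FN1, which hepatocytes also secrete, was higher in liver at 52.2 to 271 TPM against 2.46 to 4.16 TPM.

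Stress genes stood higher in liver on the deposited scale. Of 17 immediate early and heat shock genes, 12 were higher in liver, 4 with TMM scaling and 3 in a fit to all 25 libraries. Over all tested genes 29.6% were higher in liver, and 15% with TMM scaling. HSPB1, a small heat shock protein, was at 220.3, 182, 344, 447 and 980.1 TPM in liver and 97.4, 96.9, 109.8, 113 and 254 TPM in pancreas, and the immediate early factor JUN at 71.2, 181, 97.1, 151 and 257 and 36.2, 66.6, 56.8, 52.3 and 75.0 TPM. Both calls ended with TMM scaling.

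Each organ's leading transcripts were also detected at a low level in the other organ. Leading here means the 50 called genes per side with the largest differences under the naming rule. The low percentages follow largely from that choice, and SPINK1, abundant in both organs, was not in the set. For the 16 leading pancreatic genes that averaged 1000 TPM or more, the liver of the same animal held a median of 1.08%, 0.819%, 0.571%, 1.22% and 0.975% of the pancreas level in animals 1 to 5. INS in animal 2 was the exception, with 61.0% of the pancreas level in the liver. For the 27 leading liver genes above 1000 TPM, the pancreas held 0.902%, 0.713%, 1.01%, 1.25% and 0.807% of the liver level. The part of RNA carried between samples in these low levels was not tested.

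Genes of other tissues were present as well. SPRR3, of squamous epithelium, was at 0, 195, 116, 0 and 114 TPM in the pancreas and 0.151, 199, 72.7, 0.749 and 273 TPM in the liver of animals 1 to 5. KRT13, a keratin of the oral lining, was at 0.594, 282, 158, 4.65 and 54.7 TPM in pancreas and 4.49, 266, 30.5, 0.532 and 152 TPM in liver. Both genes were high in both organs of animals 2, 3 and 5 and near 0 in both organs of animals 1 and 4. CRCT1 and S100A9 had the same pattern. In the 15 salivary gland libraries of the series the highest SPRR3 level was 32600 TPM and the highest KRT13 level 50400 TPM, both in the sublingual gland of animal 1. The salivary genes ZG16B and PIP were at 142 to 1701 and 333 to 911 TPM in pancreas and 157 to 1813 and 126 to 1092 TPM in liver, and reached 217000 and 61300 TPM in the sublingual gland of animal 5. LOC103881672, named after its values were seen, was at 3280 to 10500 TPM in pancreas and 5630 to 10600 TPM in liver. It reached 449000 TPM in the parotid gland of animal 4, and is left out of the counts of named genes at the end.

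Skeletal muscle genes varied by library. ACTA1, skeletal actin, was at 128, 169, 8.90, 119.8 and 87.1 TPM in pancreas and 235, 250.3, 2.08, 2.84 and 9.68 TPM in liver, and CKM, muscle creatine kinase, at 62.9, 68.7, 3.97, 47.6 and 39.0 TPM in pancreas and 99.1, 109, 0.6, 0.515 and 3.69 TPM in liver. The livers of animals 1 and 2 were high and those of animals 3, 4 and 5 low, while 4 of the 5 pancreases were high. Of 7 muscle genes 0 were called by limma on the deposited scale, 4 were higher in pancreas with TMM scaling, and 0 had an unadjusted p under 0.05. Of 9 tested genes of fat cells, 0 were higher in pancreas and 2 in liver (1 and 1 with TMM scaling). All tested genes gave 5.08% and 29.6% (10.2% and 15% with TMM scaling). GPD1, a glycerol phosphate dehydrogenase that hepatocytes also express, was higher in liver, at 46.2 to 128 TPM against 4.70 to 12.9 TPM. PLIN4, a lipid droplet protein named after its values were seen, was higher in liver with -1.14, a call that ended with TMM scaling and without animal 1. The fatty acid carrier FABP4 was at 9.47 to 63.2 TPM in pancreas and 17.5 to 53.2 TPM in liver, and the adipocyte hormone gene ADIPOQ was at 0.298 to 4.96 TPM in pancreas and 0.817 to 3.24 TPM in liver.

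A few genes were present in some animals and nearly absent in others, in both organs. RPS25, a ribosomal protein gene, was at 243, 4.29, 2.26, 1.89 and 0 TPM in pancreas and 276, 2.69, 0.652, 0 and 1.06 TPM in liver, with animal 1 alone high. MRPL41, of the mitochondrial ribosome, was at 0.303, 93.6, 0, 2.12 and 152 TPM in pancreas and 1.99, 164, 0, 0.78 and 201 TPM in liver, with animals 2 and 5 high. For both genes the values separated by animal and not by organ.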

How the data were processed

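The 10 pancreas and liver libraries were assigned to tissue and animal by their labels. The authors deposited 1 table of TPM values for 21287 genes in the 25 libraries, named as kallisto abundances, and each library sums to 1000000 TPM to within rounding. Per the submitters' processing notes, FastQC, MultiQC, cutadapt, HISAT2, kallisto, SAMtools, featureCounts and DESeq2 were used in the study. Which kallisto version, transcript index and genome build made the values is not given in the sources used here. The TPM values were taken as deposited, were not scaled between libraries as far as the labels show, and keep no record of read depth, so counting error is unknown.

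Genes that averaged 1 TPM or more in pancreas or in liver were tested (12453, with 8834 left out). The model was limma 3.58.1 in R 4.3.3 on log2(TPM + 1), a scale that understates differences of low genes, with tissue and animal as terms and a trend in eBayes. P-values were Benjamini-Hochberg adjusted over all tested genes. Calls needed an adjusted p below 0.05 with a log2 difference of 1 or more in size. The code was tested on simulated data. Animal numbers pair the tissues of 1 animal. Deviations from the tissue means correlated at 0.477, 0.137, 0.37, 0.261 and 0.588 within animals 1 to 5. Between animals, the pancreas of animal 2 correlated at 0.217 with the liver of animal 5. The pancreas of animal 4 correlated at 0.265 with the liver of animal 1. Both were above the value within the same animal, so for animals 2 and 4 the pairing rests on the animal numbers alone. The labels give no sequencing batch, and each animal gave 1 library per tissue. The p-values and SEs thus rest on 5 animals, with each gene's spread drawn by eBayes toward that of genes of similar level. They do not measure a gene's own spread alone.

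The 54 gene lists, the comparison and the tests were chosen with earlier results of these data known, and the lists are described by counts and medians only. Of 1266 list symbols 1096 were in the table. The rule named, per side, the 15 called genes with the largest difference, a mean of at least 10 TPM, the same direction in all 5 animals and a symbol other than a LOC number. It added up to 4 members of each list with the highest mean TPM, up to 2 members called against the list's majority, cell type markers, and per tissue the 5 most variable genes above 50 TPM. Other genes are stated to have been named after their values were seen. Some genes that the rule names are not reported here. The RefSeq table of Panubis1.0 was used for names and gene order only. A planned search of promoter motifs was not run, since no sequences were used here. The 16 alternatives covered the block, the libraries fitted, scaling, filters, pseudocount, variance trend, call rule and each animal left out. TMM and median-of-ratios factors were computed on the TPM values in Python 3.11.15 with pandas 2.3.3 and numpy 2.4.6, and figures were drawn with matplotlib 3.10.9.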

Additional observations from a re-analysis of the deposited data

Results flagged for a closer look

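One library stood far from the other 4 of its tissue, by Dixon's test at the 95% level on log2(TPM + 1), in 36 of the 316 groups of 5 formed by the genes named above. Chance flags about 1 in 20 groups, and genes of one library are not independent. Animal 5, the male, was the library concerned in 29 of them.

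In its pancreas, animal 5 was low for ACADSB at 4.82 TPM (others 12.9 to 14.9), BGN at 0.892 TPM (others 2.55 to 3.54), C3 at 7.87 TPM (others 18.6 to 22) and CD59 at 24.7 TPM (others 93.4 to 131). Also low there were DCN at 36.5 TPM (others 61.8 to 75), EEF1B2 at 145 TPM (others 469 to 672), FGB at 14.2 TPM (others 30.9 to 39.7) and FTH1 at 489 TPM (others 783 to 875). Low values of the same library were those of GRPR at 0.26 TPM (others 1.56 to 2.37), P4HB at 121 TPM (others 376 to 593), PLVAP at 9.17 TPM (others 23.6 to 29.4) and RPL13A at 791 TPM (others 3040 to 3430). In its pancreas, animal 5 was low for SHMT1 at 1.31 TPM (others 2.76 to 3.5) and TMED3 at 53.7 TPM (others 156 to 202). In its liver, animal 5 was low for ACADSB at 59.3 TPM (others 269 to 421), ALB at 14300 TPM (others 31100 to 38500), CALR at 98 TPM (others 322 to 430) and EEF1B2 at 125 TPM (others 196 to 230). That liver was also low for EPHX1 at 515 TPM (others 1030 to 1210), P4HB at 56 TPM (others 310 to 400), PSAT1 at 7.72 TPM (others 39.3 to 72.3) and SERPINC1 at 593 TPM (others 1580 to 1650). Further low values there were SHMT1 at 113 TPM (others 246 to 326), SHMT2 at 22.9 TPM (others 64 to 76.2) and SLC10A1 at 78 TPM (others 183 to 214).

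Animal 5 was high for HSPB1 at 254 TPM (others 96.9 to 113) in pancreas. In liver it was high for APOA2 at 47900 TPM (others 24300 to 28900), G6PC2 at 120 TPM (others 37.7 to 49.7) and KRT18 at 79.3 TPM (others 45.8 to 53.1).

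ACTA1 in the pancreas of animal 3 was at 8.9 TPM, against 87.1 to 169 TPM in the other 4. ASNS in the pancreas of animal 3 was at 10.4 TPM, against 19.6 to 23.1 TPM in the other 4. CKM in the pancreas of animal 3 was at 3.97 TPM, against 39 to 68.7 TPM in the other 4. CLPS in the liver of animal 3 was at 418 TPM, against 852 to 928 TPM in the other 4. FABP4 in the liver of animal 4 was at 17.5 TPM, against 39.5 to 53.2 TPM in the other 4. LOC116268615 in the liver of animal 1 was at 147 TPM, against 175 to 186 TPM in the other 4. RPS25 in the liver of animal 1 was at 276 TPM, against 0 to 2.69 TPM in the other 4. The part of RNA quality, sex or section content in these values was not tested.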

How the results depend on the processing

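Scaling moved the balance between the sides most, and the call rule the total. Genes higher in pancreas numbered 633 as deposited, 1273 with TMM, 1287 with median-of-ratios scaling and 1461 with totals that leave out genes at 1% or more of a library, and genes higher in liver 3680, 1869, 1845 and 1703. The share of called genes higher in pancreas was 14.68%, 40.52%, 41.09% and 46.18%, and the median log2 difference of all tested genes -0.59, -0.0787, -0.0631 and 0.0169. A fit to all 25 libraries gave 2772 calls, 2320 of them higher in liver, adjusted p alone 8703 (1289 and 7414), and the treat test 2085 (292 and 1793). The median was -0.24 with no filter, -0.83 at a mean of at least 5 TPM and -0.77 with a pseudocount of 0.1. Without the replicate block 4260 genes were called (623 and 3637), and of the 149 named genes with a tested difference only GCG lost its call. Leaving out 1 animal gave 4254 to 4413 calls (586 to 708 and 3625 to 3705), shares of 13.75% to 16.04% and medians of -0.60 to -0.57. Among the named genes no call reversed under these alternatives. The sign of uncalled genes turned, with TMM, median-of-ratios scaling and reduced totals in this order, to C7 0.0158, 0.0329 and 0.13, CD46 0.27, 0.29 and 0.36, FABP4 0.39, 0.41 and 0.51, FOXA2 0.0848, 0.10 and 0.21, KRT18 0.39, 0.41 and 0.52, KRT8 0.45, 0.47 and 0.58, PHGDH 0.36, 0.38 and 0.49, PPIB 0.23, 0.25 and 0.36, TMED2 0.42, 0.44 and 0.55, ZGPAT 0.0717, 0.0912 and 0.19. FABP4 ranged from -0.79 to 0.14 when 1 animal was left out, turning without animal 1 or 3. TMED2 ranged from -0.51 to 0.16 when 1 animal was left out, turning without animal 2. Of the 149, 9 lost and 5 gained a call with TMM, 15 lost it in the 25-library fit and 22 under treat. Depth is unknown, because TPM keeps no record of it.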
